A study of Mus musculus with 8 samples.

Results

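Mab21l1 was followed in the early kidney of Wt1 mutant and control mouse embryos. It is read by a single probe, 827149, whose identifier in the files is the RefSeq transcript of Mab21l1. It is 1 of 310 genes with a symbol and 1 of 33012 probes on the array. The probe was chosen because its signal was higher in mutants in these same 8 samples. Its difference between genotypes is therefore given as a description, with no test.

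Each sample was RNA pooled from 16 microdissected metanephric kidneys at E10.25 (8 to 13 tail somites), on a mixed C57Bl6/DBA background, and was read in one colour on an Applied Biosystems Mouse Genome Survey array. The mutant group was 4 pools of embryos labelled as Wt1 knockouts, from mice that carry a Wt1 mutant allele, and the other group was 4 control pools. The titles of the control pools say wild type and their genotype entries say Wt1 heterozygote, so the controls may carry 1 mutant copy and are called only controls. It is not stated whether pools came from separate litters, so the spread between pools may be partly technical. The dissected piece contains the metanephric mesenchyme along with its surroundings, and in such bulk RNA a change in the number of cells that make a transcript and a change in the amount per cell cannot be told apart.

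MAB21L1 belongs to a family named after the mab-21 gene of Caenorhabditis elegans, which patterns sensory rays in the male tail. Its fold is related to that of the innate immune sensor cGAS. In the mouse, Mab21l1 is known for its role in the developing eye, where the lens fails to form normally without it, and in the preputial gland. Wt1 encodes a zinc finger transcription factor without which the kidney does not form. In the RefSeq gene table of GRCm38.p6, Mab21l1 lies inside the span of Nbea, which encodes the scaffold protein neurobeachin. Positions are not printed, because no build is named for the array.

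The mean Mab21l1 signal was higher in mutant than in control pools, but the genotypes overlapped. On the log2 scale after quantile normalization, which gives all arrays the same distribution of signals, the mutant pools measured 12.09, 12.84, 12.58 and 12.46 (pools 1 to 4). The control pools measured 11.56, 12.26, 11.02 and 11.77. The 3 highest values were mutant and the 3 lowest were control, while control pool 2 lay above mutant pool 1. In 15 of the 16 pairings of a mutant with a control pool the mutant pool was the higher. The pairings reuse the same pools, and the probe was chosen on these values, so nothing is read from that count. The share of tested probes that reach it is not given.

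The mean was 12.49 ± 0.31 in mutants and 11.65 ± 0.51 in controls (log2 signal, SD, n = 4 each). The difference was 0.84, a 1.79-fold higher signal in mutants. Its SE was 0.27 in limma's linear model, which draws on the variance of all tested probes and not only on these pools. Against the mean of the controls, the mutant pools stood at 1.36-fold, 2.27-fold, 1.91-fold and 1.76-fold for pools 1 to 4. The controls themselves ran from 0.644-fold to 1.52-fold of that mean. The spread within genotypes, an SD of 0.42 pooled over both, was thus about the same size as the 0.44 by which mutant pool 1 exceeded the mean of the controls.

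**Figure D1:**
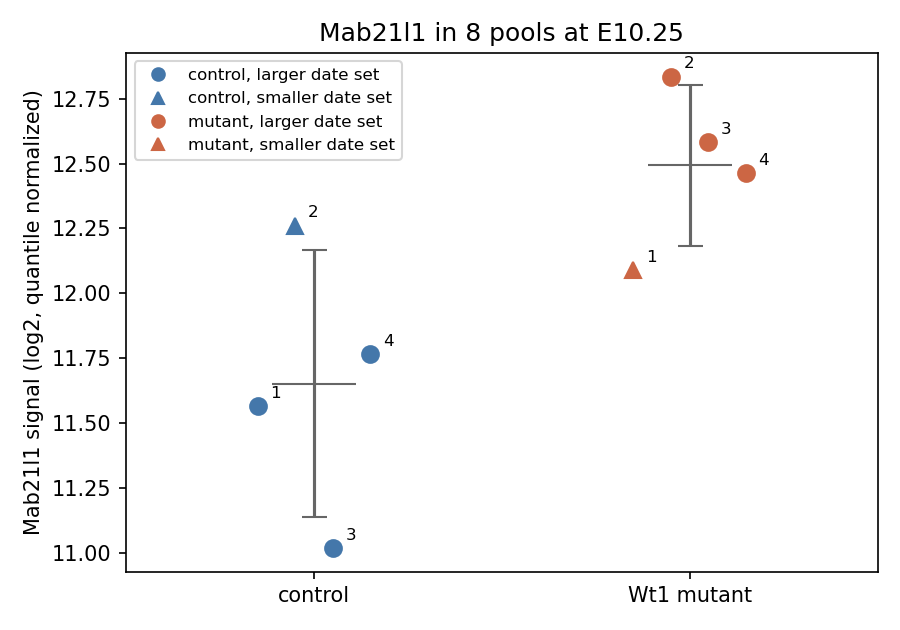
Mab21l1 signal (log2, quantile normalized) in 4 control and 4 Wt1 mutant pools. Points are pools with their numbers, triangles mark the 2 arrays of the smaller date set, and bars give the mean and SD. Control pool 2, at 12.26, lies above mutant pool 1, at 12.09.

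In order of level, control pool 3 was lowest, followed by control pools 1 and 4, mutant pool 1, control pool 2, and mutant pools 4, 3 and 2. Of the 7 steps between neighbours, 1 exceeded the pooled SD of 0.42, that of 0.55 between control pools 3 and 1. The smallest step was 0.12, between mutant pools 4 and 3. Neighbours other than control pools 3 and 1 therefore did not differ beyond the spread within genotypes, and no gap separates mutants from controls.

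Both arrays at the point of overlap belong to the same set. The array names carry 2 dates, whose meaning is not stated. One date, the larger set, holds 3 mutant and 3 control pools. The other, the smaller set, holds only mutant pool 1 and control pool 2. These 2 arrays also had the lowest median signals of the 8, at 812.8 and 681.6, against 917.0 to 2118.2 on the other 6. The part of the date and of array brightness in the Mab21l1 values was not tested.

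Within the larger set the genotypes did not overlap. The mutants averaged 12.63 ± 0.19 and the controls 11.45 ± 0.39 (log2 signal, SD, n = 3 each). The difference was 1.18 (limma's SE 0.22), or 2.26-fold, and the lowest mutant pool lay 0.70 above the highest control pool. All mutant pools lay above all control pools in this set for 1158 of 16646 tested probes, 6.96%. Since Mab21l1 was picked with these arrays, nothing is read from its being among them.

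In the smaller set, with 1 pool of each genotype, the mutant signal was instead 0.889-fold that of the control, a difference of -0.17 on the log2 scale. That difference is smaller than the spread within genotypes and has no replicate. Of 418 tested probes that differed by at least 1 log2 unit in either direction in the larger set, 128 (30.6%) had the opposite sign in the smaller set. Of the 194 of these that were higher in the mutants of the larger set, 82 (42.3%) were lower in the mutant pool of the smaller set.

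The probe was detected on all 8 arrays, in control pool 3 only just. A probe was counted as detected at a signal-to-noise score of at least 3 with a flag under 5000, and the Mab21l1 flag was 0 in all 8 pools. Its score was 8.21, 12.91, 19.68 and 18.57 in mutant pools 1 to 4 and 15.78, 10.11, 3.99 and 5.55 in control pools 1 to 4. The lowest scores belonged to control pools 3 and 4, the 2 pools whose arrays read this probe closest to noise. Mab21l1 passed the filter through either genotype by itself.

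The deposited signal, before any scaling, did not separate the genotypes. On that linear intensity scale the mutant pools measured 2992, 7137, 4918 and 6228, and the control pools 6156, 3218, 2798 and 3248. Control pool 1 was here as bright as mutant pool 4. Its array was also the brightest of the 8, with a median signal of 2118.2 against 1316.8 for mutant pool 4. Without any scaling the difference in log2 means was 0.47, against 0.84 after quantile normalization.

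The authors' own array-normalized signal put the 8 pools in the same order as the quantile-normalized values. It measured 4.09, 6.41, 5.71 and 5.16 in mutant pools 1 to 4, a mean of 5.34 ± 0.98, and 3.04, 4.61, 2.03 and 3.19 in control pools 1 to 4, a mean of 3.22 ± 1.06 (linear scale, SD, n = 4 each). Control pool 2 again lay above mutant pool 1. The deposited signal divided by the array-normalized signal gives the factor the authors applied at this probe. In 6 pools it was 97.5% to 101.8% of the median factor of its array. In the other two, mutant pool 2 and control pool 2, it was 114% and 109%. A larger factor lowers the normalized value, so the values of these 2 pools were set lower there than a single factor per array would have put them.

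**Figure D2:**
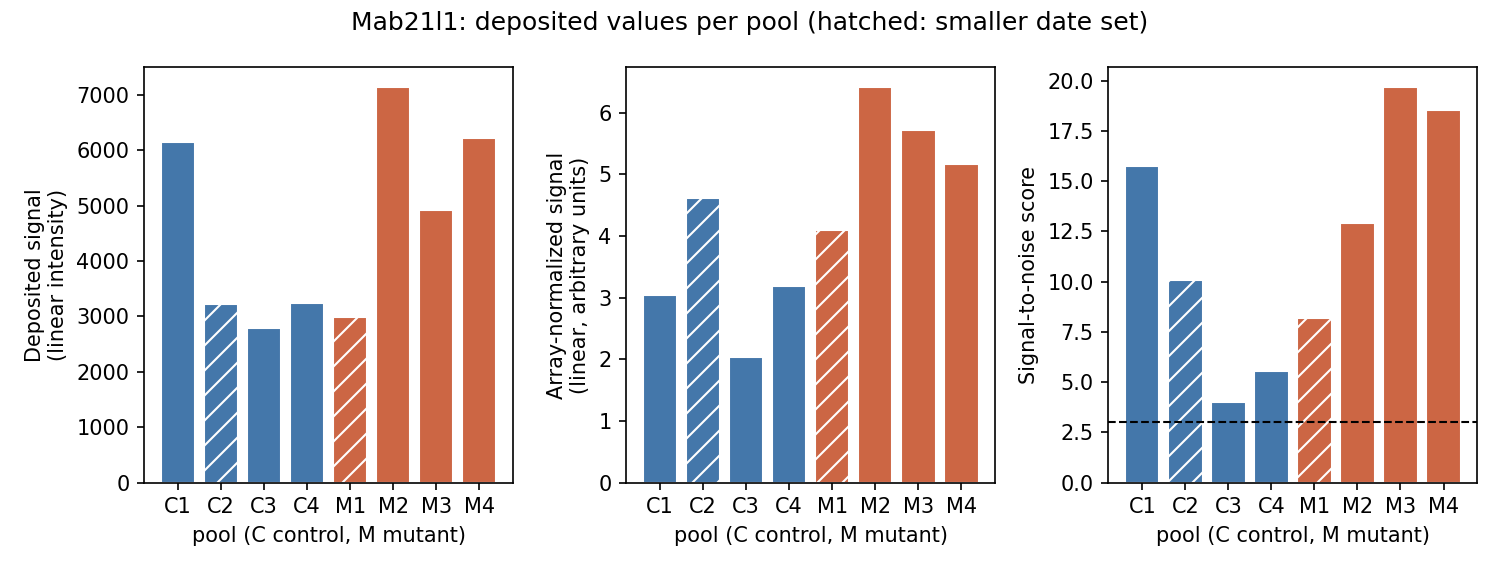
Deposited values of the Mab21l1 probe in control (C) and mutant (M) pools, with the signal, the array-normalized signal and the signal-to-noise score in 3 panels, each on a linear axis from 0. Hatched bars are the 2 arrays of the smaller date set and the dashed line is the detection limit of 3. Control pool 1 is as bright as mutant pool 4 in signal and falls to 3.04 once array brightness is divided out.

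The size of the Mab21l1 difference was in the upper part of the range on this array without being rare. Of 17594 tested probes, 421 (2.39%) were at least as much higher in mutants, and 750 (4.26%) differed by at least as much in either direction. The median difference over all tested probes was -0.06. Mab21l1 also varied more than most probes among pools of one genotype. Its SD exceeded that of 80.7% of tested probes among mutants and of 81.3% among controls, where the medians were 0.136 and 0.287. Limma's linear model, two-sided with Benjamini-Hochberg adjustment at a threshold of 0.05, called 81 probes (0.460%), of which 12 (0.0682%) were higher in mutants. Mab21l1 was not among these, and nothing is read from that, because the probe was chosen on this contrast.

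The controls were uneven across the array. On the first principal component, with 42.4% of the variance, control pools 1 and 2 lay at 42.2 and 67.5 and the other 6 arrays between -21.5 and -13.1. The share of probes detected ran from 52.6% to 59.5% over the arrays. No probe was matched to Wt1, so its level could not be used to check the genotypes. Mab21l1 did not follow this division in a simple way. Control pools 1 and 2 lay at 11.56 and 12.26, with control pool 4, at 11.77, between them.

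Leaving out control pools 1 and 2 raised the Mab21l1 difference to 1.10, and leaving out control pools 3 and 4 lowered it to 0.58. In the first case the genotypes no longer overlapped, since control pool 2 was gone. Over 20 alternatives the difference stayed above 0, from 0.58 to 1.18. Those that added the date or the replicate number to the model could not move it. Each date set and each number holds as many mutant as control pools. Leaving out 1 pool could not have brought the difference to 0, given the spread within each genotype. The genotypes were apart under 5 of the 20 alternatives, each of which left out or averaged a pool at the point of overlap. They were the larger date set, the omission of mutant pool 1, of control pool 2 or of control pools 1 and 2, and the averaging of mutant pools 1 and 4, 2 arrays named with the same number. With that average the lowest mutant value lay only 0.02 above control pool 2. Under each of the 6 other scalings and value types the overlap remained, with mutant pool 1 between 0.10 and 0.36 below control pool 2.

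**Figure D3:**
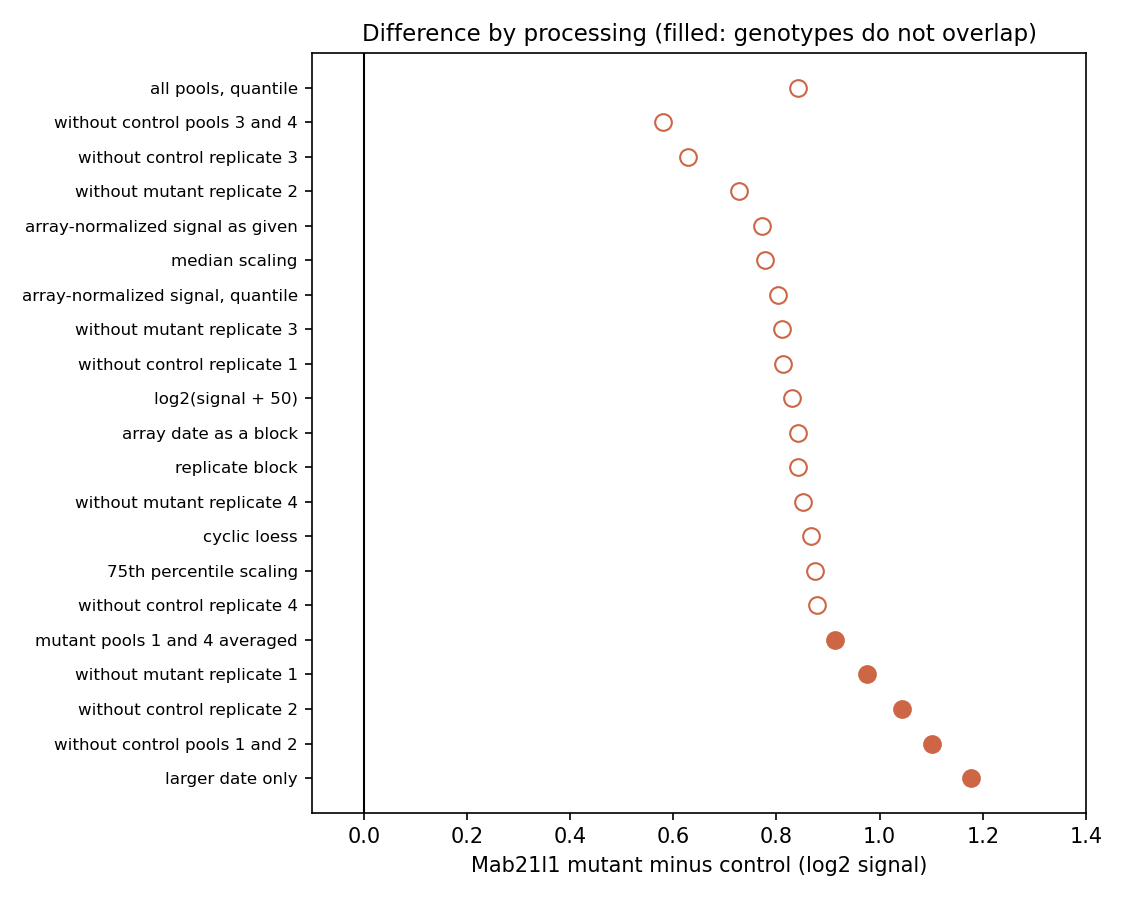
Mab21l1 mutant minus control difference (log2 signal) with all pools under quantile normalization, at the top, and under 20 alternatives sorted by size. Filled points are settings in which the lowest mutant value exceeded the highest control value. The differences run from 0.58 to 1.18, and the 5 filled points are those without a pool from the overlap or with mutant pools 1 and 4 averaged.

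The genes whose level followed that of Mab21l1 most closely from pool to pool were sought among the 172 other tested genes with a symbol. The measure was Pearson's r of log2 signal over the 8 pools, which share genotype, date set and array brightness, so the values are descriptions and carry no test. The median r over these genes was -0.05. Zfp352, a zinc finger gene, had the highest value, at r = 0.86. Its signal was 13.55 to 13.65 in the mutants and 13.41, 13.79, 13.21 and 13.42 in control pools 1 to 4. As for Mab21l1, control pool 3 was the lowest pool and control pool 2 the highest control, here above all mutants. Taken as deviations from the genotype means, the relation was about as close, at r = 0.87. It was thus not one of genotype means alone. Zfp352 varied more among the controls (SD 0.242) than among the mutants (SD 0.047). Without control pools 3 and 4, r fell to 0.62. The scaling mattered too, with r over the 8 pools at 0.64 for the array-normalized signal as given and 0.71 with median scaling.

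Magel2, an imprinted gene of the MAGE family whose protein acts with ubiquitin ligases, came next at r = 0.84. Its signal was 11.96, 11.94, 11.96 and 12.37 in mutant pools 1 to 4 and 11.33, 12.20, 11.13 and 11.47 in control pools 1 to 4. Control pool 2 was again the control that reached into the mutant range. The deviations from the genotype means gave r = 0.71. Wdfy1, which encodes an endosomal adaptor with WD repeats and a FYVE domain, had r = 0.74, and Chrnb1, a subunit of the muscle acetylcholine receptor, r = 0.71. Dcaf12l2 had r = 0.71 and the clustered protocadherin Pcdha3 r = 0.62. For Pcdha3 the deviations gave r = -0.11, so its likeness to Mab21l1 was one of genotype means. Wdfy1 and Chrnb1 depended on the controls that entered, with r falling to 0.27 and 0.24 without control pools 3 and 4. That of Magel2 fell to 0.65 there. For Dcaf12l2 r fell to 0.48 with the array-normalized signal after quantile normalization.

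In the opposite sense, Rasd1 mirrored Mab21l1 in nearly every pool, at r = -0.94. Rasd1 encodes a Ras-related GTPase that glucocorticoids induce. Its signal was 12.16, 11.88, 11.93 and 11.98 in mutant pools 1 to 4 and 12.68, 12.39, 12.78 and 12.59 in control pools 1 to 4. Control pool 3, with the least Mab21l1, had the most Rasd1, and mutant pool 2, with the most Mab21l1, had the least. The rank correlation was -0.98. Within genotypes the deviations gave r = -0.98, and the 6 pools of the larger set gave r = -0.97. Over 17 alternatives r ran from -0.97 to -0.78, the weakest with median scaling.

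Fam83g, whose protein binds SMAD1 and casein kinase 1, had r = -0.87, as did Ldhal6b, a lactate dehydrogenase-like gene. The fourth gene of this kind, the type I keratin Krt23, was detected in 4 control pools and 0 mutant pools, so the order of its mutant values is not measured and no r is given. Over all 17593 other tested probes, 61 (0.347%) had an r of at least 0.9 with Mab21l1 and 33 (0.188%) an r of at most -0.9. Of the 172 genes with a symbol, 0 reached the first and 1, Rasd1, the second.

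**Figure D4:**
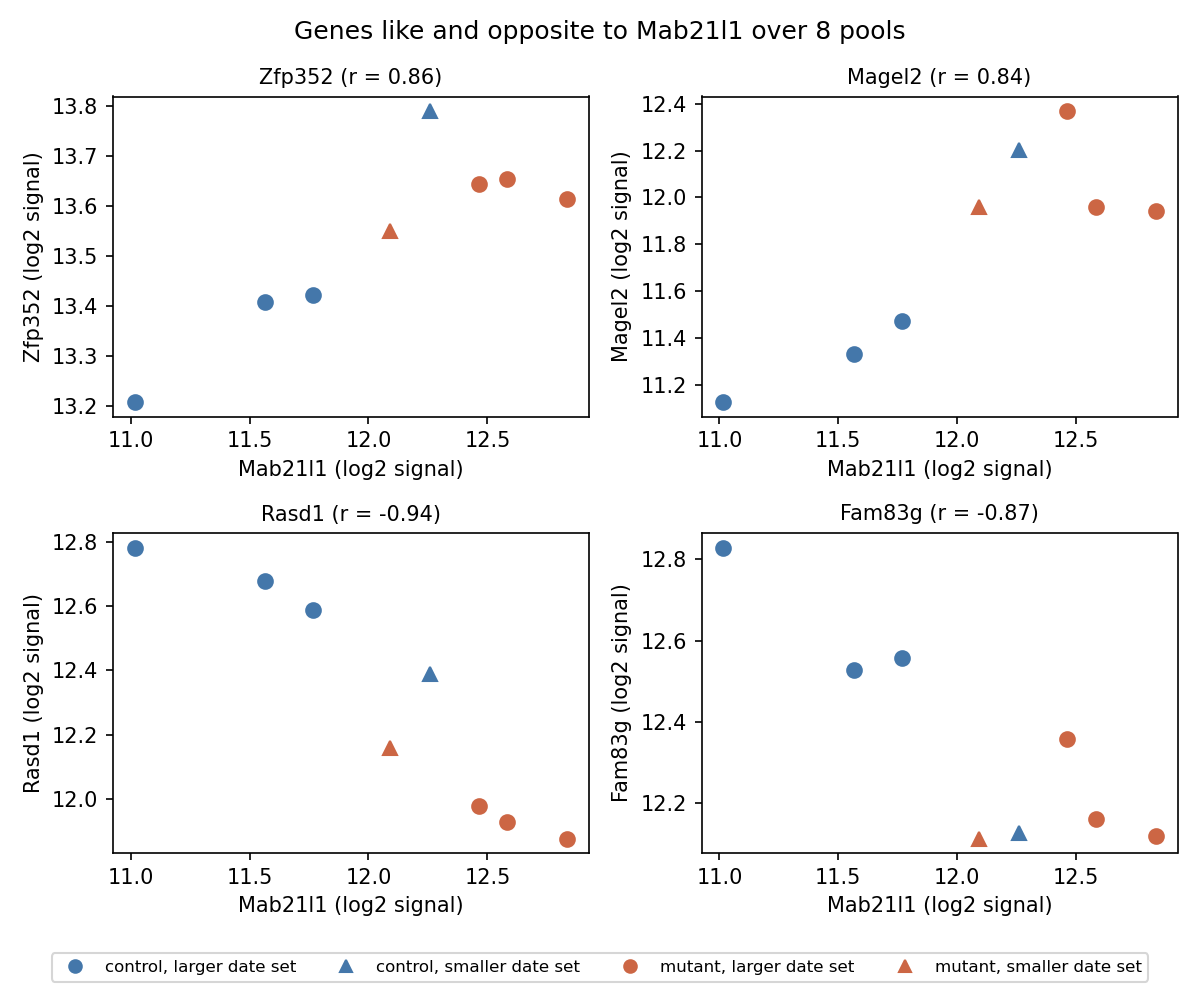
Signal (log2) of Zfp352, Magel2, Rasd1 and Fam83g against that of Mab21l1 in 8 pools, with control pools in blue, mutant pools in orange and triangles for the 2 arrays of the smaller date set. Zfp352 and Magel2 rise with Mab21l1 (r = 0.86 and 0.84), and Rasd1 and Fam83g fall (r = -0.94 and -0.87). The 2 triangles lie between the other controls and the other mutants for Rasd1, and among the lowest pools for Fam83g.

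Mutant pool 1 and control pool 2 also lay nearer each other in several of these genes than the genotype means of the larger set, for Zfp352 only slightly. In the smaller set the mutant minus control difference was -0.24 for Zfp352 and -0.24 for Magel2, while it was 0.29 and 0.78 in the larger set. For Rasd1 it was -0.23 against -0.75. Pcdha3 differed less between the sets, with 0.76 in the smaller and 0.89 in the larger. These genes were picked for their likeness to Mab21l1, so their values are not independent of it.

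The relatives and neighbours of Mab21l1 could hardly be examined with the symbols at hand. Of 12 genes of the MAB21 family, among them the close paralog Mab21l2, 1 was matched to a probe, Mab21l1 itself. Nbea and the 5 annotated genes on either side of Mab21l1 were matched to 0 probes. The others are not analysed here.

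Of 40 developmental regulators of the eye, body wall and kidney or of BMP signalling, 3 were matched and 1 was tested, and 0 passed the threshold in either direction, against 0.460% of all tested probes, so with 1 gene this count says nothing of the list. That gene was Sox11, which encodes a transcription factor of neural and mesenchymal progenitors. It measured 16.72, 16.21, 16.63 and 16.80 in mutant pools 1 to 4 and 16.93, 16.69, 16.52 and 16.52 in control pools 1 to 4. The genotypes overlapped, and the difference of -0.08 (limma's SE 0.16, limma's adjusted p = 0.821) turned its sign in 3 alternatives. Lhx2 and Sox3, transcription factors of the eye and nervous system, were each detected in 1 control pool and 0 mutant pools and were not tested.

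Markers of the cell types that the dissected piece could hold were as sparse. Of 54 entries in 9 marker lists, 2 were matched to a probe, and the lists for metanephric mesenchyme, endothelium, leukocytes, neural tissue, germ cells, body wall and gonad had 0. The tissue label was therefore not checked. The only red blood cell marker, of 10, was the alpha globin Hba-a1. It measured 19.84, 20.00, 20.10 and 19.77 in mutant pools 1 to 4 and 18.08, 18.66, 19.40 and 19.64 in control pools 1 to 4. The difference was 0.98 (limma's SE 0.32) and did not pass the threshold (limma's adjusted p = 0.279). Without control pools 1 and 2 the difference was 0.41 (limma's adjusted p = 0.183). Without control pools 3 and 4 it was 1.56 and passed (limma's adjusted p = 0.00331), as did 25.2% of all probes tested in that setting. Hba-a1 and Mab21l1 thus had higher means in the same genotype, at r = 0.48 over the 8 pools, and the part of blood content in the Mab21l1 difference was not tested. In the smaller set Hba-a1 was 1.18 higher in the mutant while Mab21l1 was 0.17 lower.

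Of 8 genes listed as markers of ureteric bud and nephric duct, only Krt23 was matched to a probe. Whether Krt23 marks duct in this tissue was not tested. It was detected in 4 control pools, at 10.98 to 11.91 on the log2 scale, and in 0 of the mutant pools. It passed the filter on low values through the controls alone, so a lower signal in mutants was bound to follow. By the means as measured, Krt23 was 3.30-fold lower in mutants. Taking the detection limit on any array where that was higher left the mutant mean at 9.77, so no limit entered this fold. With the mutant values undetected, its size is not measured. The filter fixed that direction in advance, so no test of Krt23 is read. The part of duct tissue in the Mab21l1 difference was not tested.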

How the data were processed

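Each pool gave 1 array. Per the file headers, the deposited files hold for every probe a signal, its array-normalized form, a score of signal to noise and a flag. The signal is a linear intensity, never negative, and was taken as background corrected, which the deposited files do not state. The array-normalized signal, also a deposited intensity, fills the table for the whole series in 264096 of 264096 cells. How the array was read and normalized, and what the flags mean, is not stated in the sources used here.

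From these, log2 signals were quantile normalized over 33012 probes, with limma 3.58.1 under R 4.3.3. Tests were run on probes detected in at least 3 pools of a genotype, 17594 in all. Genotypes were compared with lmFit and eBayes, which were also run on simulated data. The simulated noise was independent, with the same SD in both genotypes, unlike these pools. Symbols came from the RefSeq table by unversioned accession or synonym, for 316 probes and 310 genes, of which 177 probes were tested. For a gene with several probes the brightest was used. Named were Mab21l1, the measured members of the lists, and the 6 genes of highest and 4 of lowest r. The probe, lists and rules were chosen with earlier results of these data known. Alternatives changed the scaling, values, filter, variance model, weights, date, replicate block and pools. The number of arrays limits the precision.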

Additional observations from a re-analysis of the deposited data

Results flagged for a closer look

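The Mab21l1 difference between mutant and control pools ran in opposite directions in the 2 array-date sets. All 3 mutant pools lay above all 3 control pools of the larger set, as for 6.96% of 16646 tested probes. In the smaller set mutant pool 1 lay 0.17 below control pool 2, a mutant minus control difference of -0.17 on the log2 scale. That is less than the pooled SD of 0.42. Of 194 tested probes at least 1 log2 unit higher in mutants of the larger set, 42.3% were lower in the mutant pool of the smaller set. With 1 pool of each genotype in the smaller set, the difference between the sets was not tested.

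The log2 signal of Magel2 was 12.37 in mutant pool 4 and 11.94 to 11.96 in the other mutant pools, far from it. This was the 1 value that stood apart in 26 groups of 4 pools that were checked, of Mab21l1 and the 12 other genes named with values, and chance alone gives about 5% of such groups.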

How the results depend on the processing

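The Mab21l1 difference of 0.84 moved by less than the pooled SD of 0.42 under all 20 alternatives (0.58 to 1.18). Leaving out 1 pool gave 0.63, without control pool 3, to 1.04, without control pool 2. A move of less than 0.42 was bound to follow there, since 1 of 4 pools could not shift its group's mean that far at these SDs. With the replicate block the difference was 0.84, as without it, and the date block gave the same. Both were fixed in advance, because every block holds as many mutant as control pools. With median scaling it was 0.78, where the median of all tested probes was -0.12. The count of 81 called probes was 42 in the larger date set, 30 with the replicate block, 36 with the average of mutant pools 1 and 4, 30 with dim probes kept in, 285 with array weights, 125 where control pools 1 and 2 were left out and 4507 where control pools 3 and 4 were. Leaving out 1 pool gave 41 to 85. Some of these rest by construction on fewer arrays or on more probes, and for the others the cause was not tested. Whether same-numbered pools share more than a number is not stated. Their deviations from the genotype means correlated above 0.1 in 1 of 4 pairs (-0.087, 0.18, 0.0036 and 0.078 for numbers 1 to 4). Such correlations over probes cannot exclude a shared litter or day. The Sox11 difference, -0.08, ran from -0.15, without mutant pool 4, to 0.050, without mutant pool 2, when 1 pool was left out, was 0.010 without control pool 1 and turned to 0.067 once control pools 1 and 2 were removed. With control pools 3 and 4 removed, the difference of Chrnb1 turned to -0.043 and that of Wdfy1 to -0.028. Of 240 differences of named genes under alternatives, 228 kept their sign and side of the threshold, 7 passed it and 5 turned. Of the 7, 4 were of Krt23, undetected in mutants, and nothing is read from those. Of 153 values of r with Mab21l1, Krt23 left out, 153 kept their sign and 31 moved by 0.1 or more.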
